A study of Mus musculus with 6 samples.

Results

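The 3 XEN libraries of a 6-library series, named A, B and C by their titles, were described here by the abundance of their transcripts. They were taken by title alone, and the 3 embryonic stem cell libraries of the series were not used. XEN (extraembryonic endoderm) cells are self-renewing lines of the lineage that lines the yolk sac. The cells were of strain ICR and grew in RPMI1640 with 15% FBS plus additives labelled Glut and BME, in a series described as feeder-free. Total RNA was extracted with a Qiagen RNeasy kit and sequenced on the BGISEQ-500 platform. The labels do not say how the line was derived, or whether the libraries came from separate cultures, so the spread between them may be partly technical. All errors are SDs over the 3 libraries (n = 3), and with a single group no test between groups was made.

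In the embryo, primitive endoderm gives rise to parietal endoderm, which lays down the thick basement membrane of the yolk sac, and to visceral endoderm, an absorptive epithelium that takes up and secretes nutrients and plasma proteins. GATA and SOX factors set up the lineage. A basement membrane is a sheet of collagen IV and laminin networks bridged by nidogens, and its proteins are folded and modified in the endoplasmic reticulum before secretion.

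Libraries A, B and C held 22375875, 22357053 and 21134720 expected counts over 14777, 14734 and 14589 listed genes. FPKM, a fragment count scaled for gene length and library size, is the scale on which levels of different genes are compared below. A total of 15883 genes were listed in at least 1 library and 13610 in all of them. Of the 15883, 827 were unnamed models, without a gene symbol, with 4.25% ± 0.0718 of the counts. A mean of 1 FPKM or more was reached by 10471 genes, 10 FPKM by 6196, 100 FPKM by 827 and 1000 FPKM by 74.

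The label was checked against 8 markers of XEN cells, and all 8 were above 10 FPKM in every library. Gata4, a zinc finger factor of the lineage, was at 270.0, 278 and 285 FPKM in libraries A, B and C, and Gata6, its relative, was at 106, 103 and 107 FPKM. Sox7 was at 125, 119 and 126 FPKM and Sox17, another SOX factor of endoderm, at 71.5, 76.2 and 69.9 FPKM. The PDGF receptor gene Pdgfra was at 89.1, 81.3 and 86.3 FPKM, and Dab2, an adaptor of endocytosis, at 623, 578 and 544 FPKM. The CVs (SD over mean) of these 6 genes ran from 1.84% for Gata6 to 6.77% for Dab2, so each gene held its level in all libraries. The matrix markers Sparc and Col4a1 are described with the secreted proteins.

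Markers of other cell types were low. Of 8 fibroblast and feeder genes, 0 reached 1 FPKM, their summed level was 0.2 to 0.26 FPKM per library, and Lum was not listed. Of 8 mesoderm and blood genes, 0 reached 1 FPKM, with sums of 0.79 to 0.9 FPKM, and Mesp1, Gata1, Hbb-y and Ptprc were not listed. Among 10 genes of pluripotent cells, only Klf4 passed 1 FPKM, at 51.1, 57.2 and 57.8 FPKM. Pou5f1 was at 0.2, 0.25 and 0.38 FPKM, Nanog at 0.19, 0.13 and 0.13 FPKM and Sox2 at 0.13, 0.04 and 0.06 FPKM. Eomes, at 2.01, 2.07 and 1.74 FPKM, was the sole one of 8 trophoblast genes above 1 FPKM; the list summed to 2.45 to 2.87 FPKM, and Hand1 and Prl3d1 were not listed. Of 4 definitive endoderm genes, again only Eomes passed, and Gsc was not listed. In bulk RNA, a few cells with much of a transcript and many cells with little cannot be told apart.

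All 13 parietal endoderm markers were above 10 FPKM, with a median of 339.9 FPKM. They included Thbd, the thrombomodulin gene, at 95.7, 97.6 and 112 FPKM, and Pth1r, the parathyroid hormone receptor gene, at 287, 311 and 306 FPKM. The protease gene Plat was at 80.2, 80.6 and 83.7 FPKM, and Snai1, a zinc finger repressor, at 66.1, 68.8 and 77.5 FPKM. Of 18 visceral endoderm markers, 12 reached 1 FPKM and the median of the listed genes was 20.4 FPKM. The visceral list was uneven: Spink1, a secreted trypsin inhibitor gene, was at 226, 240.5 and 177 FPKM and Ttr, for the thyroid hormone carrier transthyretin, at 25.7, 24.1 and 22.2 FPKM. Afp, for alpha-fetoprotein, was at 0.16, 0.14 and 0.17 FPKM, Apob at 0.43, 0.28 and 0.28 FPKM, Apoa1 at 0.86, 0.86 and 0.32 FPKM, and Cer1 was not listed. Genes of both lists were therefore present, with the parietal list the more complete and the higher. That order depends on which genes were listed, since the parietal list includes laminin, collagen IV, nidogen, keratin and vimentin genes. The lists were also chosen with earlier results of these data known, so they do not place the cells between both derivatives.

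The most abundant transcript per length was that of Eef1a1, which delivers aminoacyl-tRNA to the ribosome, at 6694, 7268 and 7402 FPKM. The second was an unnamed model with glyceraldehyde 3-phosphate dehydrogenase orthology, at 3590.1, 3738 and 3724 FPKM. Next came Sparc, for a collagen-binding matrix glycoprotein, at 2775, 3000.1 and 3263 FPKM, so a secreted matrix protein stood among the machinery of translation. Tpt1, for the translationally controlled tumour protein, followed at 2634, 2819 and 2778 FPKM. A second unnamed model with that dehydrogenase orthology (2401 ± 46.0 FPKM) and Rps24 (2351 ± 83.9 FPKM) took the next places. The order of those after them is not resolved, since Rpl32 (2285 ± 175), Ptma (2278 ± 56.8), Rps26 (2278 ± 155) and Ftl1 (2254 ± 123 FPKM) differed by less than their SDs.

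Among the first 100 genes, 56 had the orthology of a ribosomal protein, 19 were unnamed models, 14 had an EC number and 6 had an extracellular term, while 0 had a transcription factor term. Over all 15883 genes, these numbers were 345, 827, 4533, 1091 and 828. An extracellular term was thus about as frequent among the first 100 genes as among all genes, and an EC number was less frequent. Outside the ribosome, the 20 most abundant named genes held those of both cytoplasmic actins, Actg1 (2098 ± 22.7 FPKM) and Actb (1749.6 ± 66.2 FPKM), and of the actin-severing protein cofilin, Cfl1 (1948 ± 27.3 FPKM). They also held those of the chaperones Hsp90ab1 (2041 ± 20.5 FPKM) and Calr (1761 ± 81.3 FPKM), of the prolyl isomerase Ppia (2033 ± 70.3 FPKM), of the nucleolar protein Npm1 (1951 ± 8.36 FPKM) and of the iron store Ftl1. Seen by counts instead of FPKM, 1 gene stood ahead of Eef1a1. This was an unnamed model of 6924 bases with the orthology of the mitochondrially encoded cytochrome c oxidase subunit 1, with 1.28% ± 0.0143 of all counts against 1.20% for Eef1a1.

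**Figure D1:**
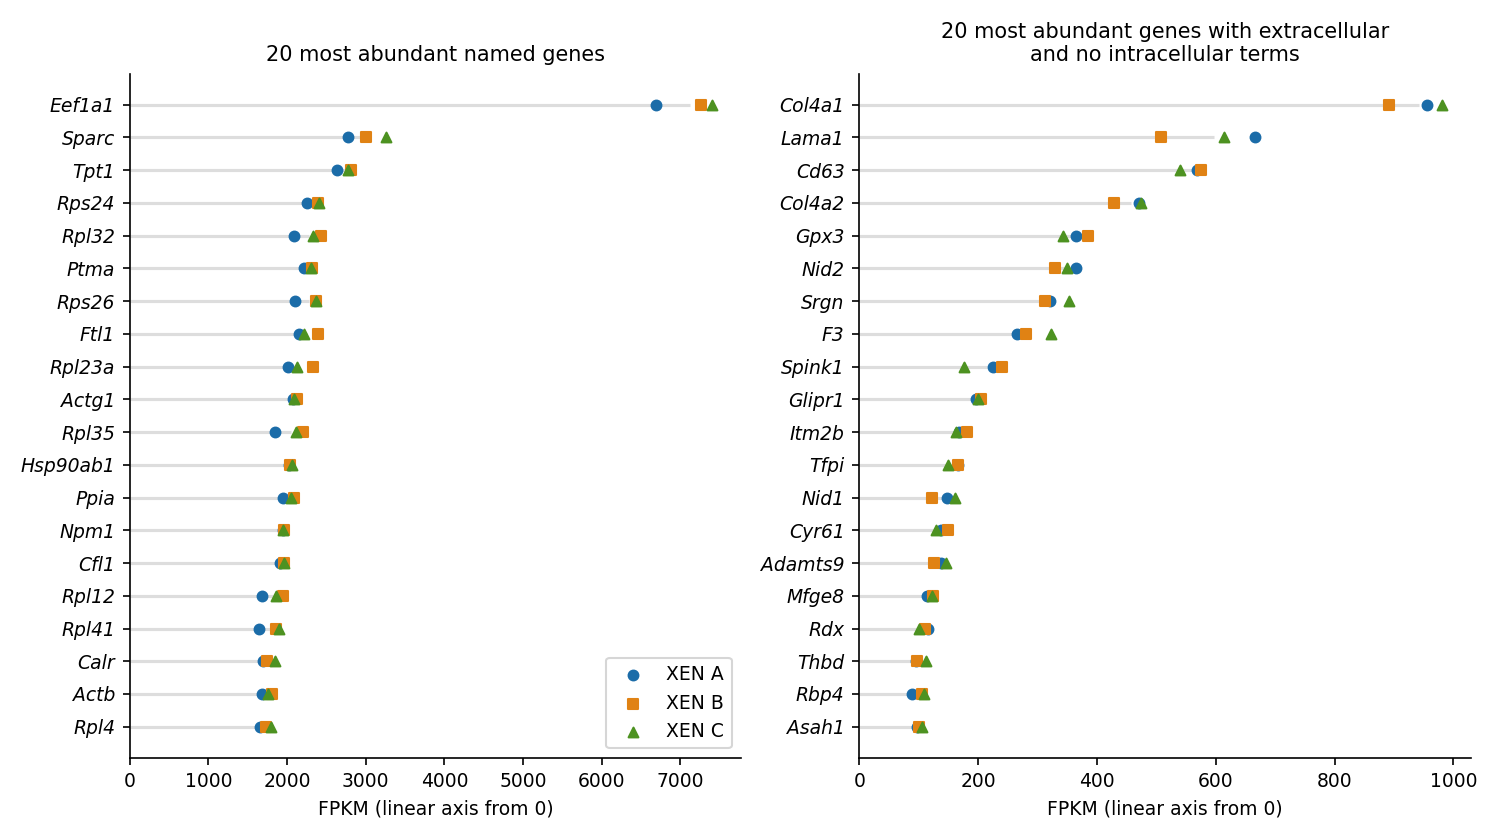
FPKM in XEN libraries A, B and C (points) of the 20 most abundant named genes (left) and of the 20 most abundant genes with an extracellular and no intracellular component term (right), both on linear axes from 0. Eef1a1 stands apart at 6694 to 7402 FPKM on the left, and Col4a1 leads the right panel at 892 to 980.0 FPKM.

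The transcriptome was spread over many genes. In order of FPKM, the first 10 genes held 3.28% ± 0.161 of the counts, the first 100 held 17.0% ± 0.375 and the first 1000 held 49.5% ± 0.491. The first 100 held 28.2% ± 0.548 of the summed FPKM, and 50% of it was reached at 407 genes. In order of counts, the first 10 genes held 6.93% ± 0.206 of the counts, the first 100 held 21.2% ± 0.176, and 50% was reached at 803 genes. Each scale gives its own top genes the larger share, so shares of counts and of FPKM along 1 order are not compared.

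**Figure D2:**
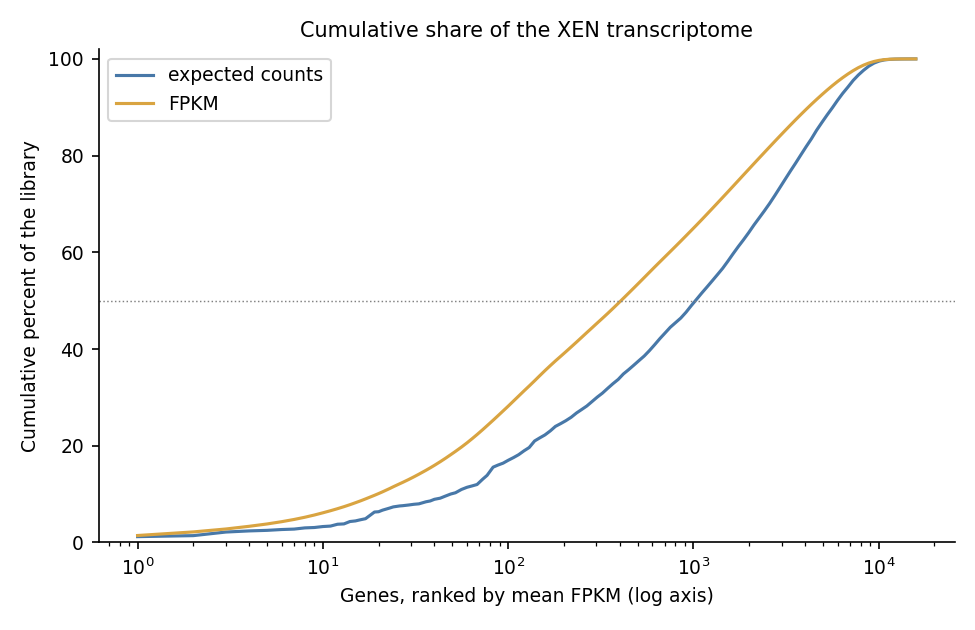
Cumulative percent of the mean library (y) against genes ranked by mean FPKM (x, log axis), for expected counts and for FPKM; the dotted line marks 50%. Both curves follow the order of FPKM, in which the FPKM curve reaches 50% at 407 genes and the count curve at 1030; the order itself places the FPKM curve higher.

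The deposited component terms placed 33.5% ± 0.0258 of the counts in genes with a nucleus term, 17.6% ± 0.106 in plasma membrane, 12.2% ± 0.0949 in endoplasmic reticulum, 12.1% ± 0.113 in mitochondrion, 8.93% ± 0.142 in extracellular region or space and 8.57% ± 0.0543 in Golgi. By FPKM, mitochondrion (14.2%) stood above endoplasmic reticulum (11.0%). Smaller shares had cytoskeleton (4.77% ± 0.0377), endosome (4.24% ± 0.0373), lysosome (3.91% ± 0.0307) and proteasome terms (0.907% ± 0.00704). These shares follow the deposited terms, which are not a sure guide to a component. The cytoskeleton class was led by Gapdh and lacked Actg1, Actb and Cfl1. Among named genes, the chaperone gene Hsp90ab1 led both the lysosome and the mitochondrion class. The classes overlap, since a gene can hold several terms, and 32.3% ± 0.0415 of the counts fell in none of the 12 component classes. Ribosome terms took 5.29% ± 0.211 of the counts but 12.8% ± 0.385 of the FPKM, the widest gap between both scales among these classes. The SD of the ribosome share was also the largest of the 12: library A had 5.05%, B 5.46% and C 5.35%. Some abundant ribosomal protein genes, such as Rpl32 and Rps26, lack a ribosome term. Genes with ribosomal protein orthology took 6.14% ± 0.312 of the counts and 18.9% ± 0.633 of the FPKM.

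The basement membrane or extracellular matrix class took 7.95% ± 0.144 of the counts, but its terms were not limited to matrix proteins. It listed 31 genes with ribosomal protein orthology, which alone held 0.916% ± 0.047 of the counts, and it also held the chaperone gene Hsp90b1. A list of 21 laminin, collagen IV, nidogen and proteoglycan chains, drawn up after the ranks were seen, held 3.08% ± 0.268 of the counts through its 18 listed members. By median level the proteasome class was the highest of the 12, with 84.8 FPKM over 64 genes, against 5.21 FPKM over all 15883 genes. The extracellular class had a median of 0.51 FPKM over 1091 genes, of which 491 reached 1 FPKM, so most of its share came from a minority of its members.

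**Figure D3:**
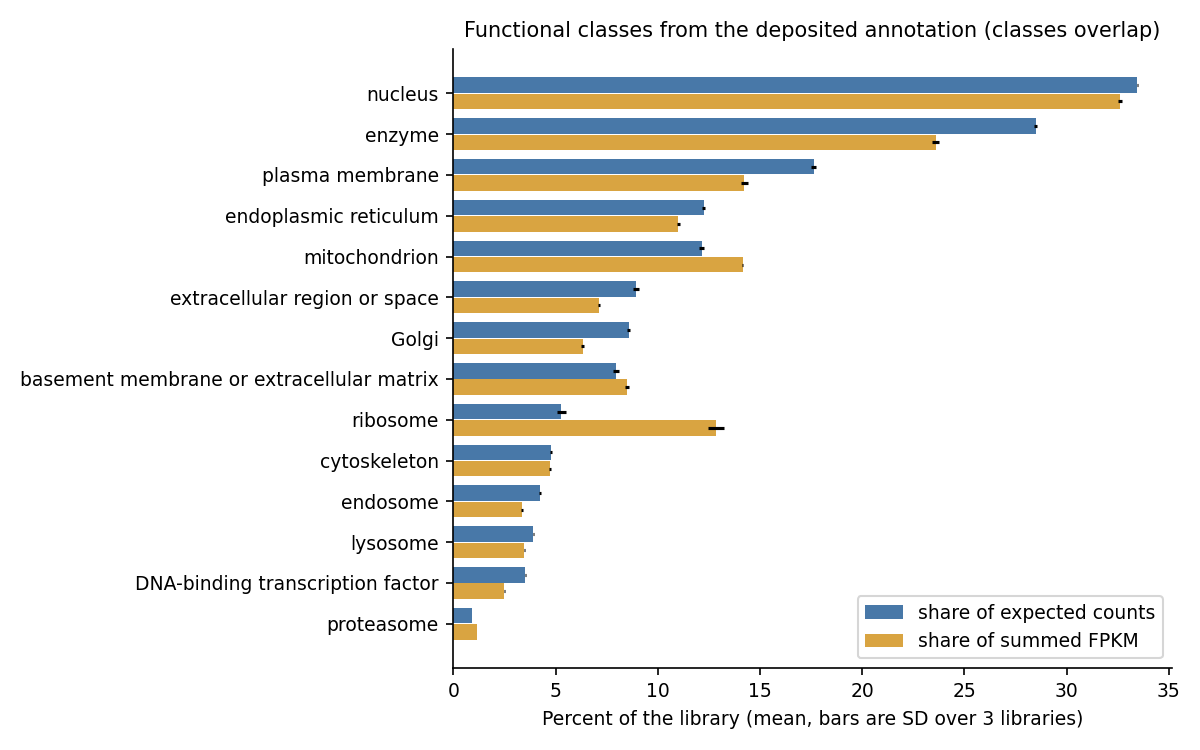
Mean percent of expected counts and of summed FPKM (bars, with SD over 3 libraries) of genes in each overlapping class of the deposited annotation. The ribosome class has 5.29% of counts and 12.8% of FPKM, while the transcription factor class has 3.53% and 2.49%.

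Ribosomal protein genes often have a start of transcription within a run of pyrimidines, the 5′ terminal oligopyrimidine tract, through which translation of these mRNAs follows growth signals. Of 83 named ribosomal protein genes at 1 FPKM or more, 62 had a RefSeq promoter entry (GRCm38.p6), for which the most upstream start was taken. In 12 of the 62 (19.4%) the start base was C and the next 4 bases were pyrimidines, against 671 of all 27025 promoters (2.48%) and 186 of 8207 promoters of genes at 1 FPKM or more (2.27%). With the tract allowed to begin within 5 bases of the start, the shares were 45.2% of the ribosomal protein genes, 18.5% of all promoters and 19.98% of those of genes at 1 FPKM or more. Among the first 100 named genes, 79 had an entry and 11 of them (13.9%) the tract. The 5 most abundant genes with the tract are shown with the starts of Eef1a1 and Sparc, because these stretches are what the top of the list shares or lacks. Each stretch runs 5′ to 3′ over 30 bases, 15 before the start and 15 from it on, and capitals mark the pyrimidine run that touches the start.
Rpl35: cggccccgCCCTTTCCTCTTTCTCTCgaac
Rpl28: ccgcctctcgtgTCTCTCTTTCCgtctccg
Rps27: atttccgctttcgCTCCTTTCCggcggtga
Rplp2: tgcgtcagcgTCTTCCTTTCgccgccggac
Rps10: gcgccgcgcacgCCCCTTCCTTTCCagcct
Eef1a1: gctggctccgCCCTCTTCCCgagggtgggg
Sparc: cagaacagatgagaCaggtggggccagggt

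In GRCm38.p6 these lie at chr2:39005117-39005146 (Rpl35, minus strand), chr7:4792950-4792979 (Rpl28, plus), chr3:90213634-90213663 (Rps27, minus), chr7:141447636-141447665 (Rplp2, plus), chr17:27635230-27635259 (Rps10, minus), chr9:78481710-78481739 (Eef1a1, minus) and chr11:55420066-55420095 (Sparc, minus). The listed start of Eef1a1 fell inside a pyrimidine run, though not on a C, and Sparc had only a single pyrimidine beside its start. The 5 ribosomal protein genes were at 1841 to 2200 FPKM (Rpl35), 1303 to 1488 FPKM (Rpl28), 1340.4 to 1400.1 FPKM (Rps27), 1079 to 1246 FPKM (Rplp2) and 983 to 1126 FPKM (Rps10). In each of these 5 genes, library A was the lowest. A match describes these letters in 1 listed start and not the start used in XEN cells.

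Genes with a DNA-binding transcription factor term took 3.53% ± 0.02 of the counts, and 510 of 828 such genes reached 1 FPKM. They sat low in the ranking: 23 were among the first 1000 genes, and the first, Cited1, was 105th. Cited1, for a CBP/p300-binding co-regulator, was at 766, 821 and 713 FPKM. Several of the genes ahead of Gata4 carry the term but are better known for other work: Nme2 (377 ± 16.0 FPKM) as a nucleoside diphosphate kinase gene, Hnrnpk (341 ± 1.05 FPKM) and Pcbp1 (308 ± 11.1 FPKM) as genes of RNA-binding proteins, and Eno1b (289.6 ± 13.7 FPKM) as an enolase gene.

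Gata4, 272nd of all genes, was followed among genes with the term by Pa2g4 (217 ± 1.49 FPKM, 369th), for a growth-regulated protein that also binds RNA, and by Epas1, for the hypoxia-inducible factor HIF-2 alpha, at 201, 194 and 200 FPKM (408th). Atf4, a bZIP activator of amino acid synthesis and transport genes, was 510th at 128, 165 and 194 FPKM, the least even of the 20 highest genes with the term, with a CV of 20.3%. Sox7 was 664th, Gata6 781st and Sall4, for a zinc finger factor also known from pluripotent cells, 850th at 98.1, 98.6 and 97.4 FPKM. The corepressor genes Trim28 (170.1 ± 2.09 FPKM) and Hdac1 (96.5 ± 1 FPKM) were also among the 20. These levels, other than that of Atf4, differed little between libraries.

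Within factor families a few members carried the level. Of 6 GATA genes, Gata4 and Gata6 passed 100 FPKM, while Gata2 (0.69 ± 0.16), Gata3 (0.31 ± 0.06) and Gata5 (0.04 ± 0.02 FPKM) stayed below 1 FPKM and Gata1 was not listed. Among 6 SOX genes, Sox7 and Sox17 were high, Sox9 was at 0.17, 0.21 and 0.18 FPKM, and Sox11 was not listed. Foxa2 was at 41.9, 43.5 and 43.4 FPKM and Foxq1 at 71.0, 75.2 and 73.1 FPKM, against 0.02 ± 0.02 FPKM for Foxa1 and 0.32 ± 0.13 FPKM for Foxa3. Hnf4a, for a nuclear receptor of visceral endoderm, was at 17.9, 16.4 and 15.2 FPKM. These families, like the lists of enzymes, receptors and signals below, were drawn up after the ranks were seen and are described without a test.

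**Figure D4:**
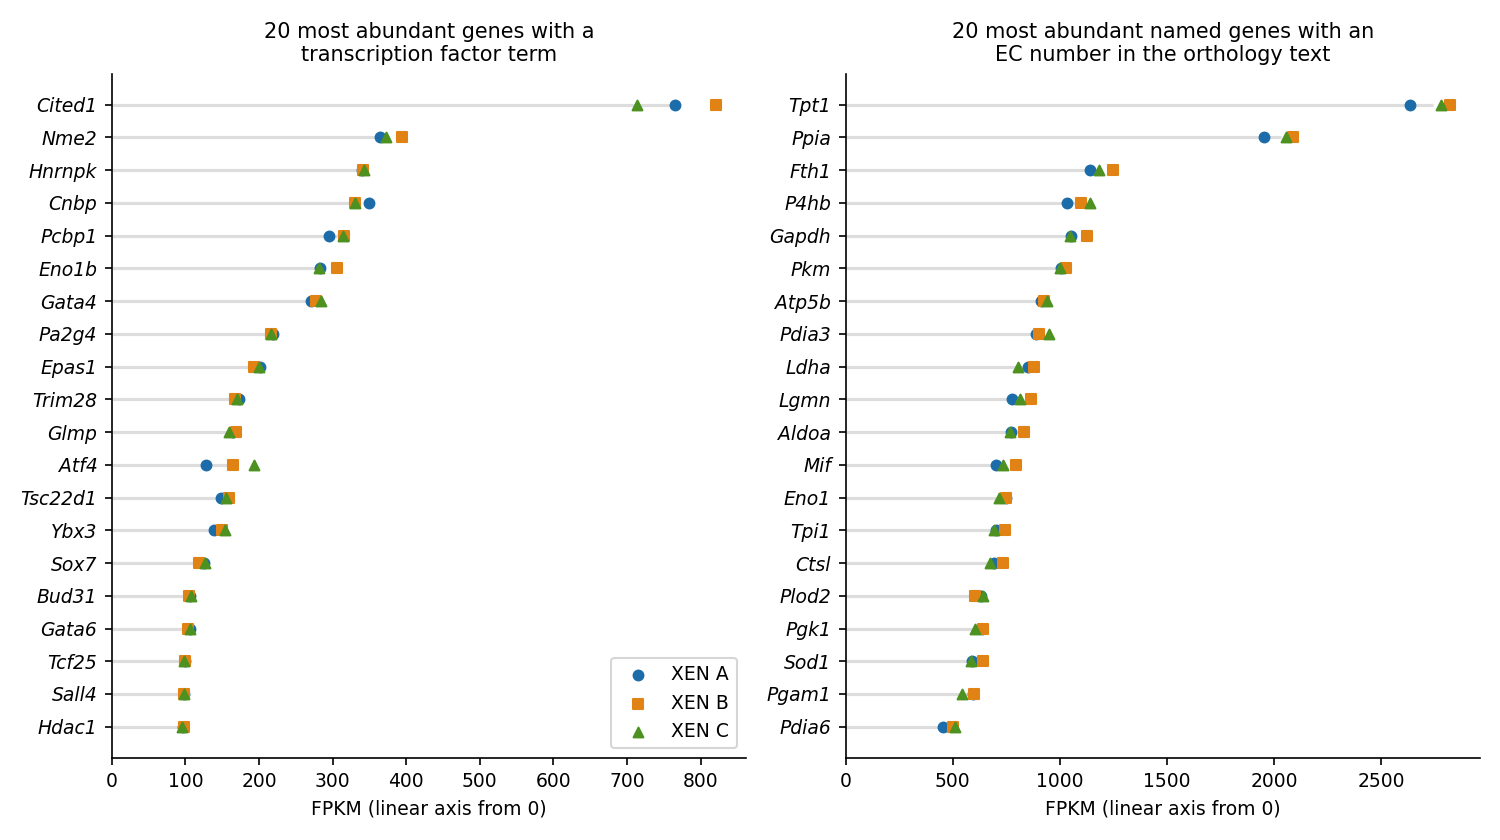
FPKM in XEN libraries A, B and C (points) of the 20 most abundant named genes with a DNA-binding transcription factor term (left) and with an EC number in the orthology text (right), on linear axes from 0. The 3 points of most factors overlap, while those of Atf4 spread from 128 to 194 FPKM; Tpt1 stands in the right panel through its orthology text.

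Single genes of secreted matrix proteins, such as Sparc (3rd) and Col4a1 (79th), stood high in the list. Sparc was followed, among genes with an extracellular term, by Hsp90b1 (1214 ± 18.1 FPKM), Fabp3 (1104 ± 50.2 FPKM), Col4a1 (943 ± 45.5 FPKM) and Pdia3 (913 ± 30.5 FPKM). Hsp90b1, Pdia3, Hspa5 (761 ± 15.9 FPKM) and Pdia6 (489 ± 30.5 FPKM) encode folding proteins of the endoplasmic reticulum, and Fabp3 a cytosolic fatty acid carrier, so an extracellular term alone did not mark a secreted protein. By counts scaled to library size (CPM), Col4a1 (5th of all genes) stood ahead of Hsp90b1 (13th) and Fabp3 (190th). Genes with an extracellular and no intracellular term held 3.09% ± 0.142 of the counts. Sparc (0.744% of the counts) is not in this class, since it also has a nucleus term. Lamc1 (0.704%) and Lamb1 (0.559%) are not in it either, since they lack the extracellular term used here. The class thus misses abundant genes of secreted matrix proteins. That class opened with Col4a1, Lama1, Cd63, Col4a2, Gpx3, Nid2, Srgn and F3, of which Cd63 encodes a tetraspanin of endosomes and exosomes and Gpx3 a plasma glutathione peroxidase.

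Basement membrane chains were present as 1 main set. Col4a1 was at 956, 892 and 980.0 FPKM and Col4a2, for its partner in the collagen IV trimer, at 470.1, 429 and 473 FPKM. Per length, Col4a1 transcripts were 2.03, 2.08 and 2.07 times those of Col4a2, and the trimer holds more alpha 1 than alpha 2 chains. The other collagen IV genes, Col4a3, Col4a4 and Col4a5, were at or below 0.01 FPKM in every library, and Col4a6 was not listed.

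Col4a1 and Col4a2 are read in opposite directions from a shared promoter. The RefSeq starts in GRCm38.p6 lay at 11312826 on the minus strand (Col4a1) and 11312805 on the plus strand (Col4a2) of chromosome 8, so that the first bases of both transcripts overlap by 22 bases. The stretch chr8:11312801-11312830 is shown on the Col4a2 strand, with the overlap in capitals, because both of the high collagen genes begin in it.
Col4a1 and Col4a2: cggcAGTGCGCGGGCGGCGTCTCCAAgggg

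Of the laminin chains, Lamb1 was at 1069.6, 892 and 995 FPKM, Lamc1 at 1017, 824 and 969 FPKM and Lama1 at 667, 509 and 614 FPKM. All of these were highest in library A and lowest in library B. Their proportions moved less than their levels: Lamb1 over Lamc1 was 1.05, 1.08 and 1.03, and Lama1 over Lamc1 was 0.656, 0.617 and 0.633. Together these genes encode laminin-111, the laminin of early embryonic basement membranes. The next laminin genes were far lower, with Lamb2 at 21.9 ± 0.6 FPKM and Lama5 at 10.6 ± 1.18 FPKM, and Lama2 and Lamc3 were not listed. Nid2 was at 365, 330.1 and 350.5 FPKM and Nid1 at 148, 122 and 161 FPKM, and the proteoglycan genes Agrn and Hspg2 were at 43.8 ± 2.83 and 30.2 ± 4.02 FPKM.

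Genes that process collagen were high alongside the chains. Serpinh1, for the collagen chaperone HSP47, was at 1006, 1111 and 1169 FPKM, and P4hb, for the shared subunit of prolyl 4-hydroxylase and a disulfide isomerase, at 1033, 1098 and 1140.2 FPKM. The lysyl hydroxylase gene Plod2 was at 634, 606 and 643 FPKM, against 117 ± 9.7 FPKM for Plod1 and 111 ± 2.71 FPKM for Plod3. P4ha1 was at 332 ± 10.53 FPKM and Loxl2, for a lysyl oxidase that cross-links collagen IV, at 201 ± 8.22 FPKM. Of the 12 genes on this list, 10 reached 1 FPKM, Fkbp10 was at 0.49 ± 0.1 FPKM and Lox was not listed.

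Other genes with an extracellular and no intracellular term, which need not encode secreted proteins, included Srgn, for the proteoglycan serglycin, at 321, 313 and 353 FPKM. F3, for tissue factor, the initiator of coagulation, was at 265, 281 and 323 FPKM. Its inhibitor gene Tfpi was at 167, 167 and 149 FPKM, so transcripts for an initiator and for 2 restraints of coagulation, tissue factor pathway inhibitor and thrombomodulin, were present together. Rbp4, for the retinol carrier, was at 89.6, 106 and 109 FPKM.

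Of 22 secreted signals, 11 reached 1 FPKM. The highest was Fst, for the activin antagonist follistatin, at 208, 212 and 241 FPKM (354th). Wnt11 was at 49.8, 54.9 and 49.7 FPKM, Ihh, for a hedgehog ligand of visceral endoderm, at 41.0, 44.1 and 45.4 FPKM, and the Wnt antagonist gene Dkk1 at 29.0, 29.2 and 30.1 FPKM. Bmp2 was at 10.1 ± 0.55 FPKM and Bmp6 at 11.8 ± 1.08 FPKM, while Bmp4 was at 0.08 ± 0.02 FPKM. Fgf3 was at 25.2, 24.3 and 26.1 FPKM.

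Of 20 genes for receptors of growth factors and of parathyroid hormone, 16 reached 1 FPKM, led by Pth1r and Pdgfra. Pdgfrb was at 1.38 ± 0.21 FPKM, so the alpha receptor gene was the main one of the pair. Kit, for the stem cell factor receptor, was at 53.8, 50.7 and 57.8 FPKM. Of the FGF receptor genes, Fgfr3 was the highest at 30.5, 31.7 and 33.7 FPKM, then Fgfr4 at 21.9 ± 0.77 FPKM and Fgfr2 at 10.9 ± 0.92 FPKM, while Fgfr1 was at 0.55 ± 0.09 FPKM. These steps exceed the SDs. Met and Egfr were at 0.02 ± 0.02 and 0.07 ± 0.02 FPKM.

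The uptake machinery of visceral endoderm was partly present. Cubn, for the scavenger receptor cubilin, was at 109, 75.6 and 77.2 FPKM and Lrp2, for its partner megalin, at 25.1, 17.6 and 18.5 FPKM. Amn, for amnionless, which cubilin needs to reach the cell surface, was at 0.45, 0.87 and 0.21 FPKM. Lrpap1, for the chaperone of LDL receptor family proteins, was at 436, 451 and 436 FPKM. Cubn and Lrp2 were highest in library A, with CVs of 21.7% and 20.2%, which stand beside the length trend described below.

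Genes with an EC number in the orthology text took 28.5% ± 0.0704 of the counts over 4533 genes, of which 3234 reached 1 FPKM. Transferases (EC 2) held 10.7% ± 0.0985, hydrolases (EC 3) 9.26% ± 0.0483, oxidoreductases (EC 1) 5.37% ± 0.0181, isomerases (EC 5) 1.94% ± 0.0303, ligases (EC 6) 1.16% ± 0.0249 and lyases (EC 4) 1.02% ± 0.0142. Unnamed models held 1.68% ± 0.0127 of the counts within the oxidoreductase share, where the cytochrome c oxidase model falls. The orthology text also gave Tpt1, which is not known as an enzyme gene, a phospholipase D number. With a catalytic function term required as well, the enzyme share was 16.5%.

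Of the 20 most abundant enzyme genes, 8 belong to glycolysis, the route from glucose to lactate. Gapdh was at 1051, 1128 and 1049 FPKM, Pkm, for pyruvate kinase, at 1006, 1028 and 998 FPKM and Ldha, for the lactate dehydrogenase A chain, at 852, 882 and 806 FPKM. Aldoa (790.2 ± 35.7), Eno1 (739 ± 19.2), Tpi1 (712 ± 27.5), Pgk1 (626 ± 19.99) and Pgam1 (579 ± 32.5 FPKM) followed. The glucose transporter gene Slc2a3 was at 1071, 1048 and 945 FPKM, above Slc2a1 at 184 ± 6.71 FPKM. Other listed isozymes of these steps were lower: Ldhb was at 28.9 ± 0.27 FPKM, Aldoc at 2.57 ± 0.31 FPKM and Eno2 at 8.33 ± 0.27 FPKM. The enolase gene Eno1b, which is not on this list, was at 289.6 ± 13.7 FPKM, so enolase did not rest on Eno1 alone. Hk2 (40.4 ± 3.27 FPKM) and Pfkl (103 ± 3.88 FPKM), for the early kinases, were lower than the later steps. The 22 genes of this list held 1.62% ± 0.0599 of the counts, which leaves out Eno1b and the unnamed models with glyceraldehyde 3-phosphate dehydrogenase orthology.

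Lysosomal proteases formed another set among the enzymes. Lgmn, for the asparaginyl protease legumain, was at 777, 864 and 814 FPKM, Ctsl, for cathepsin L, at 690.5, 733 and 673 FPKM and Ctsd, for cathepsin D, at 465, 498 and 461 FPKM. Library B was the highest for all of them. Ctsh (393 ± 17.8), Ctsz (293 ± 6.08), Ctsa (126 ± 6.05) and Ctsb (112 ± 3.93 FPKM) were also above 100 FPKM. Ctsc, Ctsk and Ctss were below 1 FPKM.

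Among named oxidoreductase genes, Fth1 (1189 ± 54.1 FPKM), for the ferroxidase chain of ferritin, was the highest. Atp5b (926 ± 14.3 FPKM), for the beta chain of ATP synthase, was second to Tpt1 among named genes with a hydrolase number. Car4, for a membrane carbonic anhydrase, was at 439.6, 484 and 479 FPKM. Glul, for glutamine synthetase, was at 466, 469.9 and 446 FPKM and led the ligases ahead of Gars (228 ± 17.5 FPKM), the glycyl-tRNA synthetase gene. Sod1 was at 588, 641 and 585 FPKM.

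No pair of libraries agreed within sampling noise. Spread beyond that noise may be technical and does not show separate cultures, so each library was counted as a sample by its title alone. The chi-square of the counts over its degrees of freedom was 7.52 for A against B, 6.31 for A against C and 4.70 for B against C, where 1 would be sampling noise alone. The common biological coefficient of variation, which leaves out counting noise, was 5.37%, and the median CV of FPKM was 4.77% for genes at 1 FPKM or more and 3.83% for those at 10 FPKM or more. Without library A the 2 values over the remaining pair were 4.76% and, at 1 FPKM or more, 3.47%. Only 31 of 6196 genes at 10 FPKM or more had a CV over 20%.

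Of those 31 genes, 16 were unnamed models, and some of these came in pairs of equal length and orthology. Unnamed tubulin alpha models of 1058 bases were at 81.9, 14.9 and 159 FPKM and at 73.9, 145 and 12.2 FPKM, but their sum was 156, 159.6 and 171 FPKM, with a CV of 4.94%. A pair with ribosomal protein LP0 orthology had CVs of 130.3% and 35.2% singly and 7.57% summed. Tmed2, the named gene with the largest CV (50.9%), was at 19.6, 9.1 and 28.5 FPKM. An unnamed model with its orthology was at 217, 238 and 226 FPKM, and their sum had a CV of 3.58%. In the tubulin alpha and LP0 pairs the sum was more even than either member. The sum with Tmed2 mostly follows the unnamed model, which alone had a CV of 4.73%. A sum is never less even than its least even member, so an even sum alone does not show divided reads. Levels of single copies in such pairs remain uncertain.

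The other named genes of the largest CVs at 10 FPKM or more were Mthfd2, Jdp2, Herpud1, Susd2, Acyp1, Cubn, Cars, Atp5g2 and Folr1. Mthfd2, for a mitochondrial folate enzyme, was at 47.3, 66.5 and 87.4 FPKM. Cars, for cysteinyl-tRNA synthetase, was at 25.3, 34.0 and 39.2 FPKM. Both are known targets of ATF4, the factor through which cells answer amino acid shortage and other stress by making amino acids, transporters and tRNA synthetases. A list of Atf4 and 39 known or likely targets was therefore written after these CVs were seen, and it is described without a test.

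Of the 39 listed genes at 1 FPKM or more, 33 (84.6%) had library A lowest and library C highest, against 1855 of all 10471 genes at that level (17.7%). These counts include genes that prompted the list. Without the 5 listed genes with a CV over 20% at 10 FPKM or more, 28 of 34 (82.4%) had that order. The 34 still hold Chac1, Pck2 and Trib3, below 10 FPKM, with CVs of 70.1%, 52.2% and 42.5%. The removal does not change that the list was written after the spread was seen. Listed genes can also move together, so they are not separate replicates of the order. The median ratio of C to A was 1.25 over the list and 0.999 over all genes. Amino acid synthesis genes were among them: Asns, for asparagine synthetase, was at 115, 132 and 167 FPKM and Psat1, for a step of serine synthesis, at 155, 179 and 215 FPKM. The transporter gene Slc7a5 was at 43.7, 53.3 and 62.2 FPKM. Chac1, for a glutathione-degrading enzyme, was at 1.49, 5.67 and 9.05 FPKM and Trib3, for a pseudokinase, at 2.88, 5.01 and 7.14 FPKM. Atf4 itself had the same order. Some targets differed little, such as Xpot (23.5, 23.2 and 25.01 FPKM) and Eprs (62.9, 58.8 and 62.2 FPKM). Slc7a11, for the cystine transporter, was at 0.04, 0.02 and 0.02 FPKM.

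Chaperones of the endoplasmic reticulum are induced by unfolded protein in that compartment. Of 15 such genes, also listed after the CVs were seen, 5 (33.3%) had A lowest and C highest. Over all genes at 1 FPKM or more that share was 17.7%. Library A was the lowest for 10 of the 15 (66.7%), against 38.3% of all genes, and the median ratio of C to A was 1.02. The 5 were Calr (1688, 1747 and 1849 FPKM), P4hb, Pdia3, Pdia4 and Pdia6 (455, 501 and 512 FPKM). Among the others, Hspa5, for BiP, was at 779, 757 and 748 FPKM, Dnajb9 at 14.5, 15.7 and 15.3 FPKM and Hyou1 at 149, 146 and 145 FPKM. The difference between both lists was not tested. The labels used here give no batch, passage or harvest time for the libraries.

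ATF4 binds, with a C/EBP partner, to elements that hold the letters TGATGNAA. These letters, on either strand in the 250 bases before the most upstream RefSeq start, were in 10 of the 34 listed genes with a promoter entry (29.4%), in 955 of all 27025 promoters (3.53%) and in 149 of 8207 promoters of genes at 1 FPKM or more (1.82%). Since targets were listed from knowledge of ATF4, this is a property of the list and not of these libraries. The stretches of 6 genes are shown with their coordinates in GRCm38.p6, as examples of the genes with the match, which most listed genes lack. Capitals mark the match, which appears as its reverse complement where it lies on the other strand.
Asns: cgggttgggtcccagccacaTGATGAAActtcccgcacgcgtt
Chac1: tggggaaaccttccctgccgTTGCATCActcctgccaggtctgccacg
Pck2: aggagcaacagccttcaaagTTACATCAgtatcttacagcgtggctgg
Aars: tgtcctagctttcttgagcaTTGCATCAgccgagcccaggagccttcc
Herpud1: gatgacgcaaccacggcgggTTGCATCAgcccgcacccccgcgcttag
Atf3: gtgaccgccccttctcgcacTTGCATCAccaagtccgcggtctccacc

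They lie at chr6:7693210-7693252 (Asns, minus strand), chr2:119351029-119351076 (Chac1, plus), chr14:55540143-55540190 (Pck2, plus), chr8:111033710-111033757 (Aars, plus), chr8:94386297-94386344 (Herpud1, plus) and chr1:191183416-191183463 (Atf3, minus). All 6 genes had library A lowest and library C highest. Pck2, for mitochondrial PEP carboxykinase, was at 0.92, 2.14 and 3.03 FPKM, Aars, for alanyl-tRNA synthetase, at 66.4, 73.9 and 87.7 FPKM, Herpud1, for a membrane protein of the endoplasmic reticulum, at 21.98, 30.3 and 37.6 FPKM and Atf3 at 23.3, 28.5 and 29.1 FPKM. Nupr1, which also holds a match, was at 1.01, 0.93 and 1.07 FPKM and had another order, and a match is a description of the letters and not a bound site.

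Part of the remaining spread followed gene length. Among genes at 10 FPKM or more, the median level in library A was 0.913 times that in library B for genes of up to 700 bases and 1.12 times for genes over 6500 bases, and the ratio was larger in each longer class of the 8. Library C lay between both in 7 of the 8 classes. The laminin chains, Cubn (11339 bases) and Lrp2 are long genes with library A highest. Cubn, at 109 FPKM in A and 75.6 FPKM in B, differed by more than the median of 1.12 times. Col4a1 (6636 bases) and Adamts9 (7560 bases; 138, 125 and 146 FPKM) are long genes with A above B but C highest. The ribosomal protein genes are short genes, of which 66.5% had library A lowest against 38.3% of all genes at 1 FPKM or more. How far length accounts for the spread of a single gene was not tested. After each length class was centred in each library, 33 of the 39 genes of the ATF4 list had A lowest and C highest, 32 of them also before centring, with a median ratio of C to A of 1.24.

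**Figure D5:**
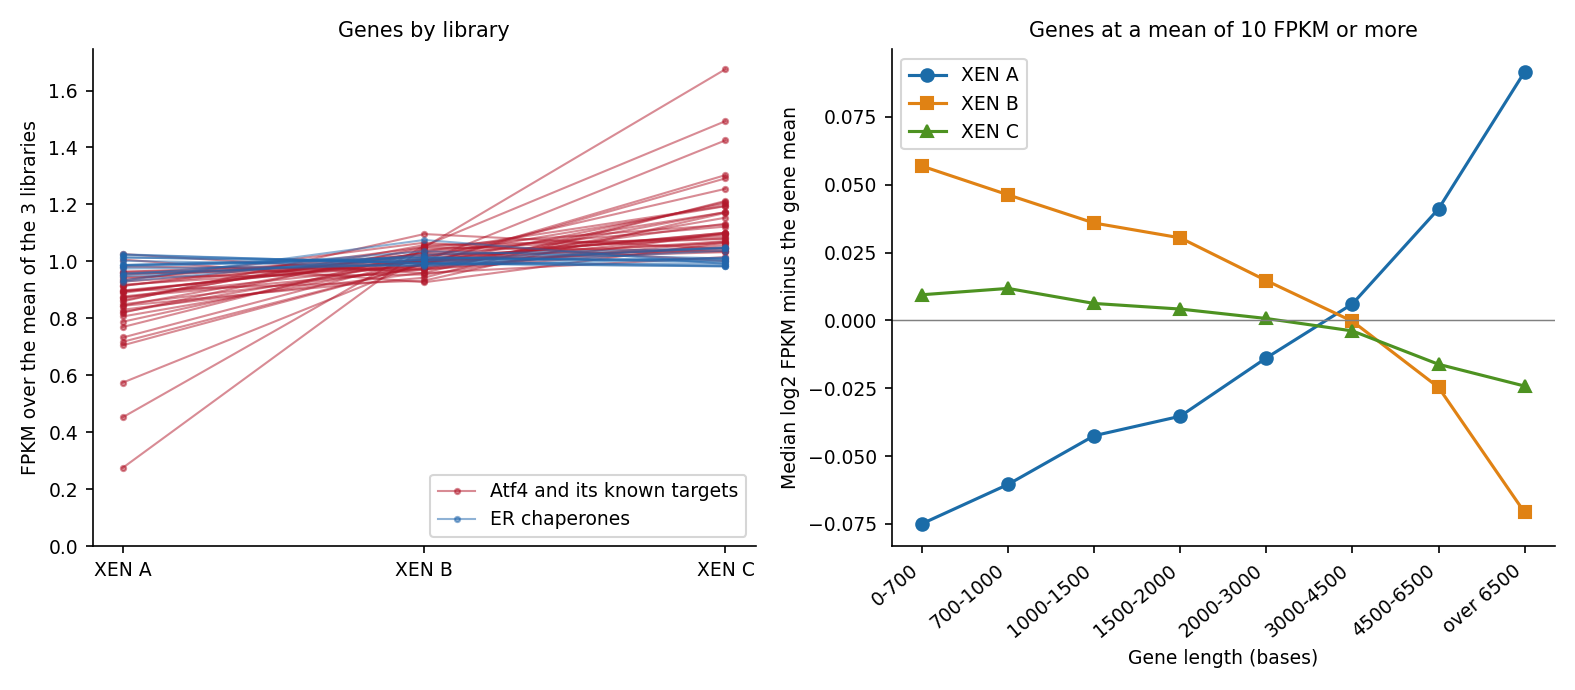
Left: FPKM of each gene over its mean of 3 XEN libraries for Atf4 and its targets at 1 FPKM or more (39 genes) and for 15 ER chaperones. Right: median log2 FPKM minus the gene mean by gene length class, for genes at 10 FPKM or more; library A is below the other libraries at up to 700 bases and above them at over 6500 bases.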

How the data were processed

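Expected counts and FPKM were deposited per gene and library. The submitters' processing notes name mm9, Bowtie2, RSEM and DESeq2, with no versions or roles; the annotation used is not given in the sources used here. The authors' expected counts (15.9% of the values above 0 not whole) were rounded for edgeR 4.0.16 (R 4.3.3) only, and the FPKM values deposited by the authors were used as given. Genes that a table does not list count as 0 there; the lowest FPKM listed was 0.01. Shares are percentages of a library's counts. Classes came from words in the deposited GO and KEGG text: EC numbers for enzymes, GO function for factors, GO component for the rest. Named genes were the 20 highest overall and among factors, extracellular genes and enzymes, the 3 highest of each EC and component class, the 10 largest CVs at 10 FPKM or more, and marker lists. Members and lists were chosen with earlier results of these data known. The common biological coefficient of variation (filterByExpr, TMM) was checked on simulated data. No test was made, since there is 1 group. Promoters came from RefSeq (GRCm38.p6), another build than mm9, matched by gene ID. Amino acid make-up was not analysed here. At 3 counts, a library reads 0.134 to 0.142 CPM. Alternatives were count against FPKM shares, named genes only, other scalings and filters, and each library left out; 2 stricter classes, a ranking by counts, the ATF4 list without 5 genes and a length correction were added after seeing the data. Some results are not reported here.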

Additional observations from a re-analysis of the deposited data

How the results depend on the processing

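No value carries a test. As shares of summed FPKM in place of counts, the classes were extracellular 7.14%, matrix 8.50%, endoplasmic reticulum 11.0%, Golgi 6.33%, lysosome 3.48%, endosome 3.37%, plasma membrane 14.2%, cytoskeleton 4.72%, mitochondrion 14.2%, ribosome 12.8%, proteasome 1.17%, nucleus 32.6%, transcription factors 2.49% and enzymes 23.6%, and the first 100 genes held 28.2%. The order of endoplasmic reticulum and mitochondrion, and that of the extracellular and matrix classes, is thus the opposite of that by counts. Over named genes only, the count shares were extracellular 9.31%, matrix 7.78%, endoplasmic reticulum 12.7%, Golgi 8.82%, lysosome 4.003%, endosome 4.42%, plasma membrane 18.0%, cytoskeleton 4.62%, mitochondrion 10.9%, ribosome 4.63%, proteasome 0.935%, nucleus 33.9%, transcription factors 3.68% and enzymes 27.8%, and the first 100 genes held 16.6%. Ranked by counts, the first 100 held 21.2%. Each of these moved by more than the SD over libraries, which is small beside the difference between scales. Without intracellular terms the extracellular share was 3.09%, and with a catalytic function term the enzyme share was 16.5%; these alternatives and the ranking by counts were chosen after seeing the data. Leaving out each library in turn is no check on the class shares, since a mean of 2 of 3 values always lies within 1 SD of the mean of all 3. The share of the first 100 genes, ranked anew, ran from 16.8% without library C to 17.2% without library A. The number of genes at 1 FPKM or more stayed between 10468 and 10474. It was 10048 among named genes and 10306 with that level in every library. The biological coefficient of variation ran from 4.76% without library A to 5.69% without library C (RLE 5.37%, no filter 5.61%). The median CV ran from 3.47% without library A to 4.21% without library C, and was 3.83% at 10 FPKM or more, 7.43% over all listed genes, 4.72% on TMM-scaled CPM and 4.28% after the length correction, which was chosen after seeing the data. The median CV of a pair is by construction smaller than that of 3 values.

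Ranks of 164 named genes moved by more than their SD over the libraries in 140 cases by CPM and 122 among named genes only, so a place in the list depends on the scale; with a library left out this held for 36 of 492 ranks. No paired analysis was possible because only 1 group was described and its results come from no test. The amino acid make-up was not run. Depth limits the low end: 4275 genes between 1 and 10 FPKM had a median CV of 6.97%, against 3.88% for 5369 genes between 10 and 100 FPKM.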

Other observations

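Values by library of 2 further gene groups follow. For iron storage, Ftl1 was at 2158, 2393 and 2212 FPKM and Fth1 at 1139, 1246 and 1184 FPKM, for the light and heavy chains of ferritin. The intermediate filament genes of the parietal list, Krt8 (399, 416 and 389 FPKM), Krt18 (341, 360.1 and 318 FPKM) and Vim (364, 366 and 391 FPKM) were all among the first 1000 genes, so epithelial keratins and vimentin were present in the same libraries.

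The deposited orthology text disagreed with the known protein for several abundant genes. It gave Sparc the term of a kinesin, Tpt1 that of phospholipase D and Ptma, for prothymosin alpha, that of a retinitis pigmentosa GTPase regulator.

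Some named genes had unnamed models with the same orthology, and whether reads were divided between them was not examined. Gapdh ranked 63rd at 1076 ± 45.3 FPKM, while unnamed models with its orthology were 2nd and 5th, at 3684 ± 81.8 and 2401 ± 46.0 FPKM, over 677 and 593 bases. A pair of unnamed models of 934 bases with ribosomal protein S2e orthology was at 1048, 1512 and 1140 FPKM and at 1522, 1336 and 1696 FPKM, with a sum of 2570.1, 2848 and 2836 FPKM.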
